A study of Mus musculus with 7 samples.

Results

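The genes described here make bile acids from cholesterol in the liver, attach them to amino acids, carry them across the hepatocyte membrane, or regulate these steps. They were chosen by name: 10 genes were listed, and every probe set of the array whose annotation gives exactly 1 gene symbol from that list was used. This gave 10 probe sets for 7 genes, of 8251 named genes in all: Cyp7a1, Cyp8b1, Cyp7b1, Baat, Slc10a1, Nr1h4 and Nr0b2. Cyp27a1, Abcb11 and Slco1a1 had no such probe set and were not analysed here.

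RNA from whole liver of 7 female mice was measured, with 1 Affymetrix U74Av2 array for each. Per the titles and source names, the animals were phenotypically normal, of genotype +/+ or +/df, where df is the Ames dwarf allele; the labels do not separate these genotypes. The animals had free access to pelleted food and water and were 24 to 26 months old when killed. The description field of the same samples instead gives Ames dwarf mice (df/df). The samples were kept in the group that their titles give, and the liver signal of no gene below checks the genotype. The titles number the animals 1, 2, 3, 4, 6, 7 and 8, and these are the replicate numbers used here. All formed 1 group, so only levels, their spread between animals, and relations across animals could be described. Nothing in the labels says outright that the RNAs came from separate mice, and the spread may hold a technical part. In whole tissue, fewer cells of a type and less RNA per cell cannot be told apart.

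Hepatocytes turn cholesterol into bile acids by a classical route, which Cyp7a1 opens, and by an alternative route, in which Cyp27a1 oxidises the side chain and Cyp7b1 adds the hydroxyl group that Cyp7a1 adds in the classical one. Cyp8b1 sets how much cholic acid is made, Baat joins bile acids to taurine or glycine, Slc10a1 (NTCP) takes them up from the blood and Abcb11 (BSEP) pumps them into bile. The nuclear receptor FXR, encoded by Nr1h4, binds bile acids and induces Nr0b2 (SHP), a partner protein that represses Cyp7a1 and Cyp8b1, and the pathway also follows the daily cycle of feeding.

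For 3 of the measured genes, the RefSeq sequence around the annotated transcription start is shown, since pairs that include them are described below. It is from assembly GRCm38.p6, runs from 250 bases before to 50 after the start, and is read 5′ to 3′ on the strand of the gene. Cyp7a1, Cyp7b1 and Baat had no such sequence among those used here, and that of Nr1h4 is left out. Cyp8b1 and Slc10a1 were the pair with the highest r, which did not pass after adjustment, and Nr0b2 is the repressor in the textbook scheme. Capitals mark exact matches, on either strand, to the TATA box TATAAA, the E-box CACGTG that clock factors bind, the nuclear receptor half-site AGGTCA, or CAAAGTC, the core of a motif bound by HNF4A.
Cyp8b1 (chr9:121916256-121916555, minus strand): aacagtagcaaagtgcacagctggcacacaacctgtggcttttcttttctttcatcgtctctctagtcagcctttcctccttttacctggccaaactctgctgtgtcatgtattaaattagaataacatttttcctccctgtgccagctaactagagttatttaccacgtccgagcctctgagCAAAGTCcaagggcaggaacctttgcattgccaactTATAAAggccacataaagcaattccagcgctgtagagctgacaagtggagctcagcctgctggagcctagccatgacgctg
Slc10a1 (chr12:80968656-80968955, minus strand): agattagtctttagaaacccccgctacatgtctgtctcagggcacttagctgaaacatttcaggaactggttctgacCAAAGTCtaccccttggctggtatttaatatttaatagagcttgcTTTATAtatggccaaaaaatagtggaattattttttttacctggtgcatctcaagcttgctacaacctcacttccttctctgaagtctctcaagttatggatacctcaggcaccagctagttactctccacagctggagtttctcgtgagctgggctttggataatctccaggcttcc
Nr0b2 (chr4:133553126-133553425, plus strand): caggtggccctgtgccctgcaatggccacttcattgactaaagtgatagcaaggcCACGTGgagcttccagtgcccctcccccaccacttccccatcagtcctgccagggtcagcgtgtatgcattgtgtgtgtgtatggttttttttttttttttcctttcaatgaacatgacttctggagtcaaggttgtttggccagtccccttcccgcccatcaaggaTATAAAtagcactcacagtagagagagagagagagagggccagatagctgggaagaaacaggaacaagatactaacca

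The Cyp8b1 window held CAAAGTC from base -67 and TATAAA from base -31, counted from the start site. The Slc10a1 window held CAAAGTC from base -173 and TATAAA on the opposite strand at base -128. The Nr0b2 window held CACGTG from base -195 and TATAAA from base -28, and none of the 3 held AGGTCA. Of all 32851 windows of this length in the table, 4.44% held CAAAGTC, 13.6% TATAAA, 7.15% CACGTG and 16.3% AGGTCA. Another annotated start of Slc10a1 (chr12:80968030-80968329) held AGGTCA alone. These matches describe letters and do not show that a factor binds.

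Liver identity and array quality bear on every value below. All 6 hepatocyte markers were measured and bright, with a summed signal of 120227 to 143919. Of 5 measured cholangiocyte markers, Krt7, Epcam and Slc10a2 lay below 50.04, the floor used before taking logs, on all 7 arrays, and the summed list ranged from 169.5 to 282. The summed skeletal muscle list, of which 6 of 6 genes were measured, was 9253 on replicate 1 and 4233 on replicate 2, and 886 to 1138 on the other 5. Acta1, Myl1, Atp2a1 and Eno3 were highest on replicates 1 and 2, while Ckm (144) and Myh4 (103) were lowest on replicate 1. Control transcripts added to each sample split the arrays into a set with brighter spike-ins, replicates 1 to 4, and a set with dimmer ones, replicates 6 to 8. No label names these sets. Markers of other cells varied less than the muscle list, with summed signals of 3216 to 4339 for 5 Kupffer cell genes, 2401 to 3750 for 4 endothelial genes, 6772 to 8175 for 4 stellate cell genes and 7738 to 12627 for 2 red cell genes. The 4 ileal enterocyte genes summed to 1271 to 1782, with Vil1 below the floor on all 7 arrays. Signals are intensities scaled to a common trimmed mean, and a level of one probe set cannot be ranked against that of another.

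Cyp7a1, the rate-limiting enzyme of the classical route (NCBI gene 13122), was the member that varied most between animals. Its signal was 761 at the lowest, 1400.1 at the median and 1928 at the highest, with a mean of 1396 ± 492 (SD, n = 7), a coefficient of variation of 35.3%. The animals did not cluster around the mean: replicates 3, 8 and 7 had 1928, 1864 and 1846, replicate 6 had 1400.1, and replicates 1, 4 and 2 had 1053, 919 and 761. The range was 2.53-fold and the SD of log2 signals was 0.55, larger than that of 97.0% of the 4481 genes tested. At its level an SD of 0.16 was expected, so that of Cyp7a1 was 3.39 times the expected one.

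Cyp8b1, the sterol 12-alpha-hydroxylase (NCBI gene 13124), had a mean of 2679 ± 673 (SD, n = 7). It was 1937 at the lowest, 2587 at the median and 4074 at the highest. Replicate 3 alone was high, with the next value at 2704, and replicate 1 was the lowest. The log2 SD was 0.33, larger than that of 86.9% of tested genes and 2.16 times the expected one. Without replicate 3 it was 0.19.

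Cyp7b1, the oxysterol 7-alpha-hydroxylase of the alternative route, which male mouse liver expresses more than female (NCBI gene 13123), was steadier on its brighter probe set. There it had 634 at the lowest, 706 at the median and 881 at the highest. The mean was 743 ± 92.2 (SD, n = 7) and the log2 SD 0.17. Replicates 7 and 1 were high, at 881 and 859, and the other 5 lay between 634 and 737. The other probe set of the gene read 365 on replicate 6 to 642 on replicate 1, with a mean of 529 ± 91.1 (SD, n = 7). Its log2 SD was larger, at 0.27, and its range 1.76-fold, so the steadiness holds for the brighter probe set only. The brighter one has the suffix _f_at, which marks probe sets that can read related transcripts. Across animals the log2 signals of the 2 probe sets had r = 0.574 (exact permutation p = 0.161, adjusted p = 0.321 over 2 such comparisons) and rho = 0.821 (exact permutation p = 0.034, adjusted p = 0.068).

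Baat, which conjugates bile acids (NCBI gene 12012), had 2148 at the lowest, 3540 at the median and 3754 at the highest, with a mean of 3235 ± 562 (SD, n = 7). Replicate 2 alone was low, and the other 6 lay between 2972 and 3754. The log2 SD was 0.28, larger than that of 79.7% of tested genes, and 0.14 without replicate 2.

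Slc10a1, the sodium-dependent uptake transporter (NCBI gene 20493), was the steadiest member. Its brightest probe set had 11060 at the lowest, on replicate 1, 11621 at the median and 12183 at the highest, on replicate 3, a 1.10-fold range. The mean was 11654 ± 394 (SD, n = 7), a coefficient of variation of 3.38%. Its log2 SD was 0.05, and only 0.402% of tested genes had a smaller one. The SD was 0.09 after quantile normalization and with all 3 probe sets averaged, and 0.03 after centring on the median. Another probe set of the gene had 9254 ± 523 (SD, n = 7), also lowest on replicate 1, but highest on replicate 2. These 2 probe sets had r = 0.327 (exact permutation p = 0.468, adjusted p = 0.468) and rho = 0.179 (exact permutation p = 0.713, adjusted p = 0.713). The third probe set, which the annotation ties to the same source transcript as the brightest one, read 26.0 to 75.3 and was below the floor on 5 of 7 arrays. The array thus held probes named for Slc10a1 that did and did not give signal in the same livers.

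The regulators were of middling spread. Nr1h4, which encodes FXR (NCBI gene 20186), had 1169 at the lowest, 1448 at the median and 1572 at the highest, with a mean of 1388 ± 168 (SD, n = 7) and a log2 SD of 0.18. Replicates 7, 3 and 2 were low, at 1169, 1211 and 1272, and the other 4 lay between 1448 and 1572. Nr0b2, which encodes SHP (NCBI gene 23957), had 656 at the lowest, 817 at the median and 894 at the highest, with a mean of 800.1 ± 80.3 (SD, n = 7) and a log2 SD of 0.15. Replicate 3 was the lowest, followed by replicate 7 at 741, and the other 5 lay between 793 and 894. Without replicate 3 the log2 SD of Nr0b2 was 0.10. Of tested genes, 46.7% had a smaller SD than Nr1h4 and 33.5% a smaller one than Nr0b2.

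**Figure D1:**
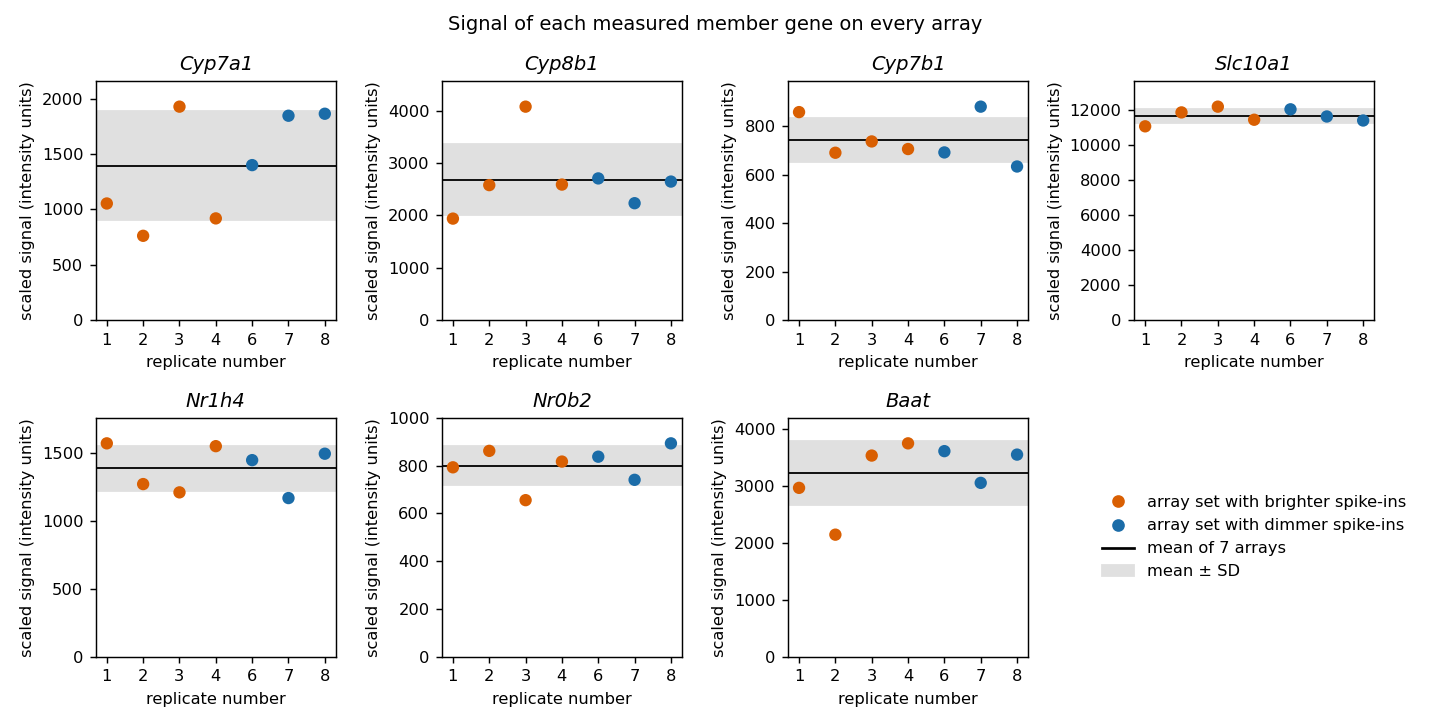
Scaled signal in intensity units (vertical axes, from 0) of the 7 measured genes on each array, by replicate number; orange and blue points are the arrays with brighter and dimmer spike-ins, the line is the mean and the grey band the mean ± SD of 7 arrays. Cyp7a1 spreads from 761 to 1928, while Slc10a1 stays between 11060 and 12183, and Cyp8b1 on replicate 3 and Baat on replicate 2 stand off from the other arrays.

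Whether a gene varied more between animals than genes of its level was tested for all 4481 genes with a mean signal of at least 200.1, using the moderated variances of limma. All 7 measured members passed that filter. An unadjusted limma p under 0.05 was found for 2 of the 7, against 301 of 4481 genes or 6.72%, and both, Cyp7a1 and Cyp8b1, are classical-route hydroxylases. After Benjamini-Hochberg adjustment, the limma fit gave adjusted p = 0.383 for Cyp7a1 and adjusted p = 0.72 for Cyp8b1. Over all genes tested, 0 of 7 members and 0 of 4481 genes (0.00%) had an adjusted p under 0.05. The smallest limma adjusted p was 0.096, that of the muscle gene Acta1, although its SD was 9.69 times the expected one. With 7 arrays the test thus passed over even very large spreads, and the count of 0 does not show that no gene had excess spread. The unadjusted p of Cyp7a1 stayed between 0.0039 and 0.046 over 21 alternative settings, and its adjusted p between 0.222 and 0.775. The 0.222 came without the filter on low signals, where every other member but Slc10a1 had the same limma adjusted p. Apart from that setting, the lowest for Cyp7a1 was 0.341, without replicate 6. Cyp8b1 had an unadjusted limma p under 0.05 in 13 of the 21, and the count of members was 1 in the other 8. Without replicate 3, it was not among those, at a limma adjusted p = 0.99. The median log2 SD of the 7 members was 0.18 and that of all tested genes 0.18, and 5 of 7 members had an SD above the expected one, against 2199 of 4481 genes.

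**Figure D2:**
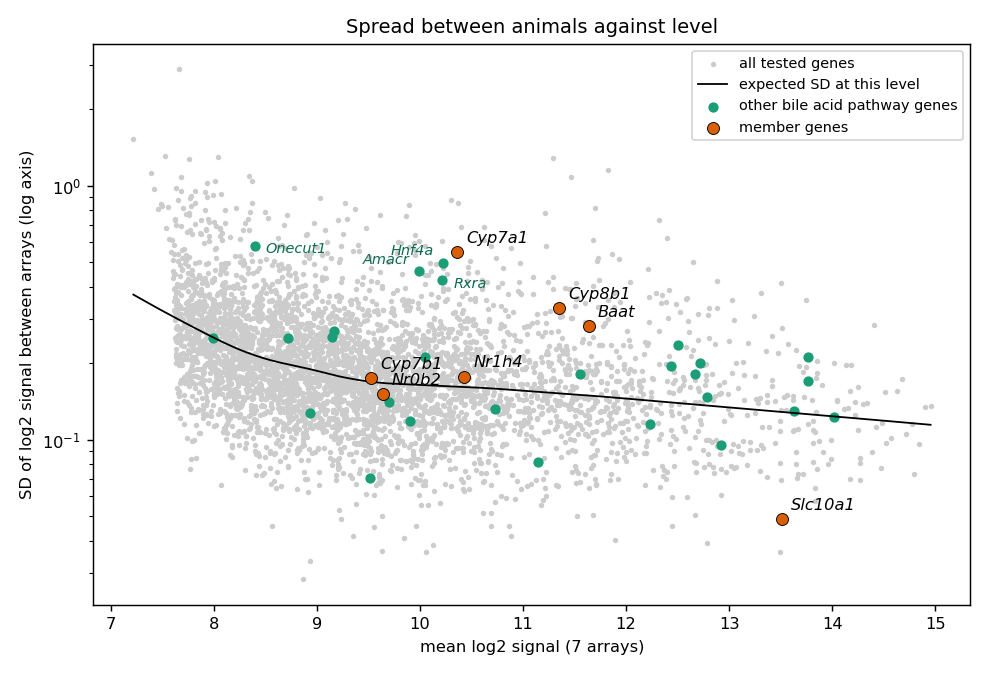
SD of log2 signals between the 7 arrays (vertical, log axis) against the mean log2 signal (horizontal) for 4481 tested genes in grey, with the SD expected at each level as a line, the members in orange and other bile acid pathway genes in green. Cyp7a1 and Cyp8b1 lie above the line at 0.55 and 0.33, and Slc10a1 far below it at 0.05. Cyp7b1 (brighter probe set), Nr1h4 and Nr0b2 lie close to it.

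The arrays that stood apart in other ways moved with some of these values. Without replicates 1 and 2, where the summed muscle list was high, the log2 SD was 0.45 for Cyp7a1, 0.32 for Cyp8b1 and 0.11 for Baat. Cyp7a1 had a mean of 1166 ± 522 (SD, n = 4) in the array set with brighter spike-ins and 1704 ± 263 (SD, n = 3) in the other set. With the set as a term in the limma fit, its log2 SD was 0.47 (adjusted p = 0.46). In the control transcripts that show RNA integrity, the Gapdh 3′ to 5′ ratio ranged from 0.788 to 0.907 and the beta-actin ratio from 1.31 to 1.78. Of 21 relations between a member and the spike-in level or one of these ratios, 0 passed after adjustment. With set means removed, r with the spike-in level was 0.975 for Cyp8b1, 0.774 for Slc10a1 and 0.704 for Cyp7a1, against 0.455, 0.177 and -0.407 over all 7 arrays (exact permutation p = 0.347, 0.702 and 0.335; adjusted p = 0.729, 0.97 and 0.729). The rho over all 7 was 0.357, 0.357 and -0.179 (exact permutation p = 0.444, 0.444 and 0.713; adjusted p = 1 for each). Between Nr1h4 and the Gapdh ratio r was 0.829 (exact permutation p = 0.034, adjusted p = 0.358) while rho was 0.893 (exact permutation p = 0.012, adjusted p = 0.258), and r was 0.413 without replicates 3 and 7, and 0.877 with the means of the array sets removed. For Cyp7a1 and the same ratio, r was -0.78 (exact permutation p = 0.051, adjusted p = 0.358) and rho = -0.643 (exact permutation p = 0.139, adjusted p = 0.972), r = -0.926 without replicates 2 and 4, and -0.725 with set means removed. For Baat and the beta-actin ratio, r was 0.736 (exact permutation p = 0.045, adjusted p = 0.358) and rho was 0.643 (exact permutation p = 0.139, adjusted p = 0.972), but r = -0.401 without replicates 1 and 2, and 0.739 with set means removed. The part of RNA integrity, array set or muscle RNA in the spread of these genes was not tested.

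Animals differed in which members were high. On replicate 3, Cyp7a1, Cyp8b1 and Slc10a1 were at their highest, 0.55, 0.64 and 0.06 above their means on the log2 scale, while Nr0b2 was at its lowest, at -0.28, and Nr1h4 lay at -0.19. The same array had the highest summed hepatocyte (143919) and ileal enterocyte (1782) signals and the brightest spike-ins, at a mean log2 signal of 10.97. It also had the lowest summed Kupffer cell (3216), endothelial (2401) and red cell (7738) signals. Single genes differed: Alb, Apoa1, Cps1 and Serpina1c were highest there, but Tat and Ttr lay below their medians. Fabp2 alone read 1549 of the ileal sum. Eng, Cdh5 and Hba-a1 were lowest there and Pecam1 was below its median, but Kdr (418) was above its median and Alas2 (605) at it. No Kupffer cell gene was lowest there, and Cd68 (470.1) was above its median. The part of cell types or spike-in brightness in these values was not tested. On replicate 7, Cyp7a1 was at 0.49 but Cyp8b1 at -0.23, with Nr1h4 at its lowest of -0.24. On replicate 2, Cyp7a1 and Baat were both at their lowest, at -0.79 and -0.57, while Nr0b2 was at 0.11. On replicate 1, Cyp8b1 and Slc10a1 were at their lowest, at -0.43 and -0.07.

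**Figure D3:**
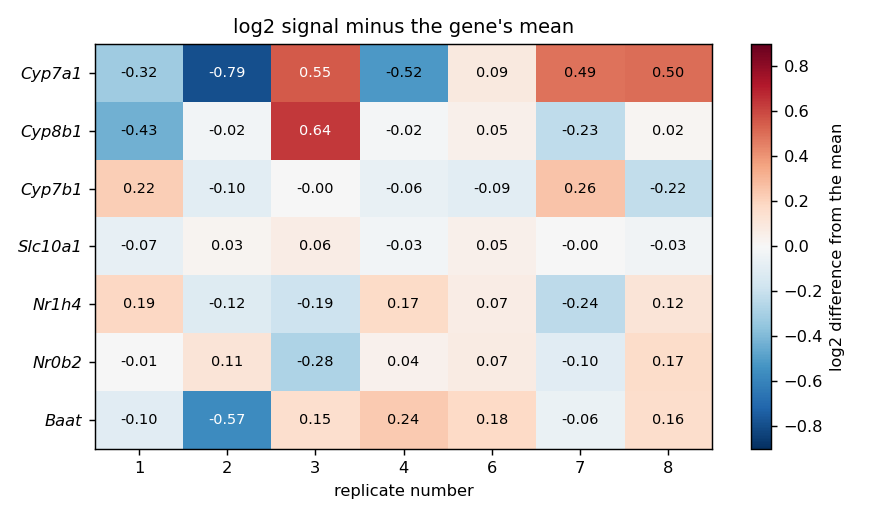
Difference of each gene's log2 signal from its own mean over the 7 arrays (colour and printed value), with genes in rows and replicates in columns. Replicate 3 combines the highest Cyp7a1 and Cyp8b1 (0.55 and 0.64) with the lowest Nr0b2 (-0.28), and Slc10a1 stays between -0.07 and 0.06.

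The textbook scheme places Nr1h4 above Nr0b2 and Nr0b2 as a repressor above Cyp7a1 and Cyp8b1. Correlations across the 7 animals were computed for all 21 pairs of measured members, and after adjustment over the 21, 0 pairs passed by r and 0 by rho. Nr1h4 and Nr0b2 had r = 0.584 (exact permutation p = 0.17, adjusted p = 0.665) and rho = 0.357 (exact permutation p = 0.444, adjusted p = 0.868). Without replicates 3 and 7, this r was -0.508, so that its sign rests on those animals together, and it was 0.638 with set means removed. When single arrays were left out it stayed positive, from 0.397 without replicate 3 to 0.756 without replicate 2. Cyp7a1 and Nr0b2 had r = -0.45 (exact permutation p = 0.323, adjusted p = 0.665) and rho = -0.357 (exact permutation p = 0.444, adjusted p = 0.868), and r = -0.287 without replicates 2 and 4. With the means of the 2 array sets removed, Cyp7a1 and Nr0b2 had r = -0.819 (exact permutation within sets, p = 0.056, adjusted p = 0.729). Within the set of replicates 1 to 4, the order of Cyp7a1 from high to low, 3, 1, 4, 2, was the order of Nr0b2 from low to high. In replicates 6 to 8 the orders differed: Cyp7a1 from high to low ran 8, 7, 6 and Nr0b2 from low to high ran 7, 6, 8. When single arrays were left out, r lay between -0.808 without replicate 8, where both were high (exact permutation p = 0.039, adjusted p = 0.408), and -0.169 without replicate 3 (exact permutation p = 0.742, adjusted p = 0.986).

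Cyp8b1 and Nr0b2 had r = -0.501 (exact permutation p = 0.239, adjusted p = 0.665) but rho = 0.036 (exact permutation p = 0.963, adjusted p = 0.963). The negative r rested on replicate 3, without which it was 0.664; without replicates 1 and 3 it was 0.864, and with set means removed -0.482. Cyp7a1 and Cyp8b1, which share this repressor, had r = 0.385 (exact permutation p = 0.431, adjusted p = 0.665) and rho = 0.536 (exact permutation p = 0.236, adjusted p = 0.868), r = 0.629 without replicates 2 and 4, and 0.619 with set means removed. Without replicate 3, however, this r was 0.013 (exact permutation p = 0.975, adjusted p = 0.986). With 7 animals, no relation among these regulators and targets passed the adjusted threshold.

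The highest r among the 21 pairs was that of Cyp8b1 and Slc10a1, at 0.787 (exact permutation p = 0.028, adjusted p = 0.596), with rho = 0.679 (exact permutation p = 0.11, adjusted p = 0.767). It was 0.811 with set means removed, 0.659 without replicate 1 and 0.684 without replicate 3, but 0.19 without both, the arrays where both genes were lowest and highest. It was also 0.347 after quantile normalization, 0.506 after centring on the median and 0.245 with all probe sets of Slc10a1 averaged. That average includes the probe set that lay below the floor on 5 of 7 arrays, so the last value is a weak check. Cyp7b1 and Nr0b2 had rho = -0.893 (exact permutation p = 0.012, adjusted p = 0.258), with r = -0.532 (exact permutation p = 0.208, adjusted p = 0.665). The r depended on replicate 3: without that array it was -0.93 (exact permutation p = 0.0014, adjusted p = 0.029). That adjustment covers the 21 pairs within 1 setting and not the choice among settings. Without replicates 1 and 7, r was -0.819, and with set means removed -0.527. After centring on the median it was -0.278.

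**Figure D4:**
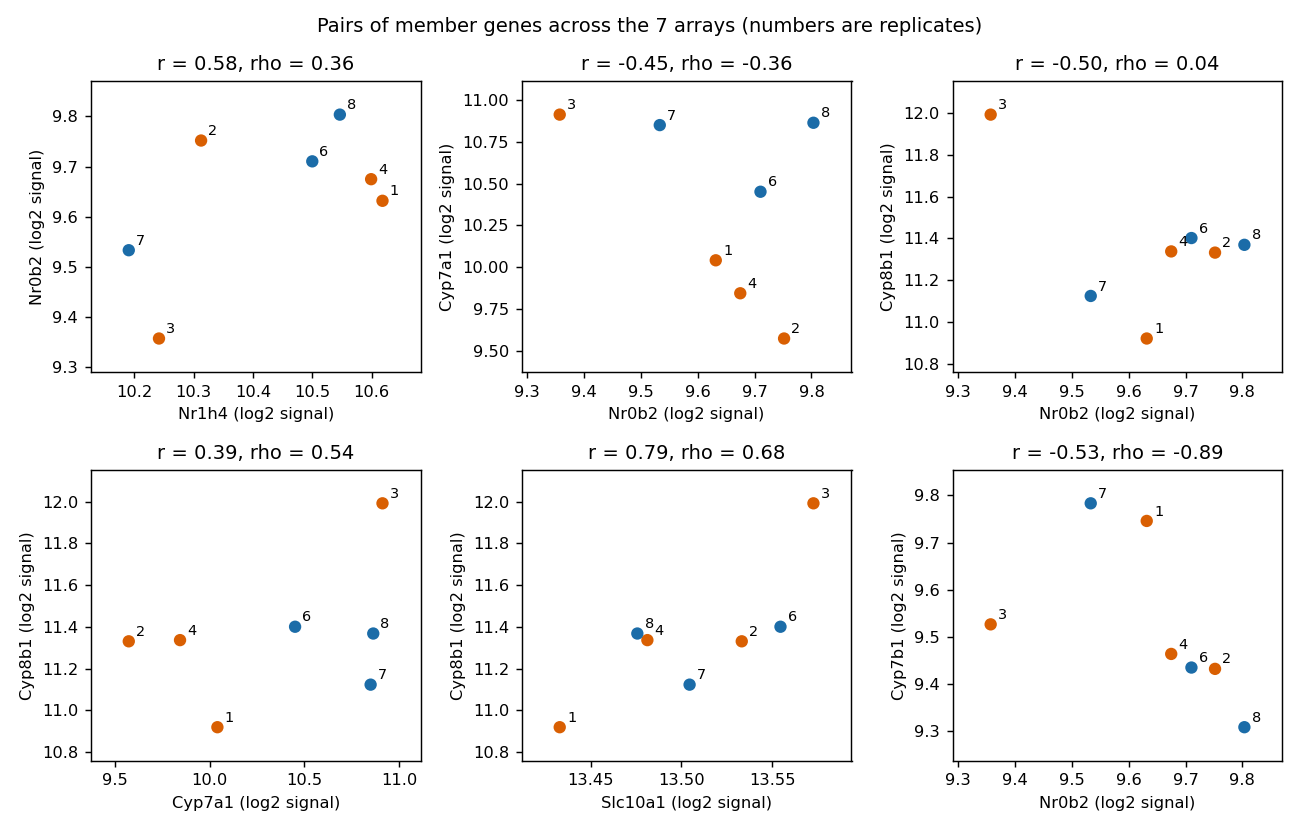
log2 signals of 6 pairs of members on the 7 arrays, 1 point per array with its replicate number; orange and blue points are the arrays with brighter and dimmer spike-ins. The negative r of Nr0b2 with Cyp8b1 (-0.501) and the positive r of Slc10a1 with Cyp8b1 (0.787) follow from few arrays, replicate 3 for the first and replicates 1 and 3 together for the second, while the rank order of Nr0b2 against Cyp7b1 runs downward (rho = -0.893).

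Genes whose pattern across the 7 arrays was most like that of the 3 most variable members were found by the highest Pearson r of log2 signals. They were chosen for this likeness, so no test applies. Nearest to Cyp7a1 was Alas1, the rate-limiting enzyme of heme synthesis, at r = 0.958 and rho = 0.929. Alas1 was lowest on replicate 2, at 7426, and highest on replicate 8, at 15492; replicates 2, 4 and 1 were the 3 lowest arrays for both genes. Ube2v1, a ubiquitin-conjugating enzyme variant, and Mapk8, the kinase JNK1, followed at r = 0.958 and 0.957, with small log2 SDs of 0.12 and 0.13 against 0.41 for Alas1. Of 4480 other tested genes, 13 had an r of at least 0.9 with Cyp7a1. How many unrelated genes would reach this with 7 arrays was not tested, so the count alone shows no shared regulation. With set means removed, r was 0.934 for Alas1, and without replicates 2 and 4 it was 0.862.

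Nearest to Cyp8b1 were Pdcd2l (r = 0.975), the hydrolase Cmbl (0.966) and the retinol dehydrogenase Rdh5 (0.964). All 3 were highest on replicate 3, and Rdh5 had 720.4 there against 454 to 528 on the other 6 arrays. Nearest to Baat were Cuedc2 (r = 0.993), the quinone oxidoreductase Cryz (0.975) and the vesicle tether Uso1 (0.96), and all 3 were lowest on replicate 2. At least 0.9 was reached by 11 genes for Cyp8b1 and 26 for Baat, with the same limit as for Cyp7a1.

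**Figure D5:**
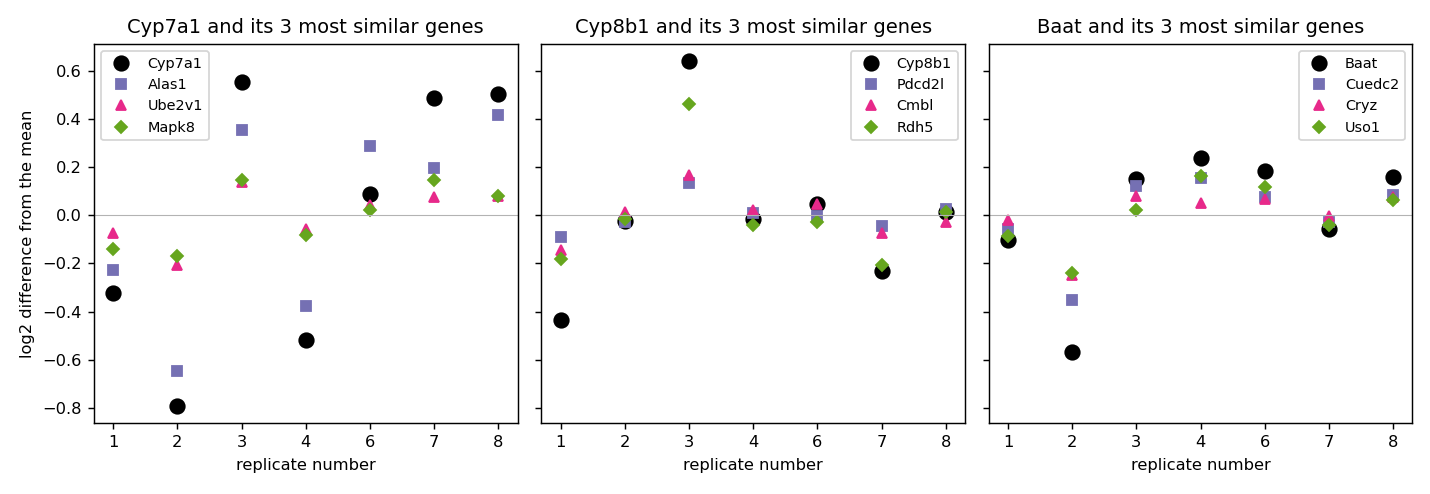
Difference of log2 signal from the gene's mean (vertical) on each array (horizontal, replicate number) for Cyp7a1, Cyp8b1 and Baat as black circles and the 3 tested genes of highest r with each as coloured marks. Alas1 lies on the same side of its mean as Cyp7a1 on all 7 arrays (r = 0.958), and the genes nearest to Cyp8b1 and Baat share their single high and single low array.

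Bile acid synthesis has a daily rhythm, and the hour at which the mice were killed is not in the labels. Cyp7a1 and Cyp8b1 were therefore set against the 12 clock and clock output genes that passed the filter, of 18 listed, and 0 of the 24 relations passed after adjustment. Dbp, an output factor of the clock that activates Cyp7a1, had 942 ± 257 (SD, n = 7), highest on replicate 3 at 1492 and lowest on replicate 4 at 755. With Cyp7a1 it had r = 0.642 (exact permutation p = 0.079, adjusted p = 0.536) and rho = 0.786 (exact permutation p = 0.048, adjusted p = 0.939). This r was 0.61 without replicates 2 and 4 and 0.878 with set means removed. Tef, a factor related to Dbp, had r = -0.822 with Cyp8b1 (exact permutation p = 0.027, adjusted p = 0.536) and rho = -0.429 (exact permutation p = 0.354, adjusted p = 0.939), and r = 0.0063 without replicates 1 and 3. With set means removed it was -0.821. Cyp8b1 and Dbp had r = 0.735 (exact permutation p = 0.106, adjusted p = 0.536) and rho = 0.5 (exact permutation p = 0.267, adjusted p = 0.939), r = 0.734 with set means removed, and r = -0.825 without replicates 1 and 3, so that the positive sign rests on those animals. The 12 clock genes had a median log2 SD of 0.31, against 0.18 for all tested genes. An SD above the expected one was found for 11 of 12, against 2199 of all 4481 tested genes. Per1 and Bhlhe40 had an unadjusted limma p under 0.05, 2 of 12 or 16.7% against 6.72% of all tested genes, and 0 had an adjusted p under 0.05.

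Of 54 further genes of the bile acid pathway, 35 were measured and 27 passed the filter. Their median log2 SD was 0.18, and 17 of 27 had an SD above the expected one, against 2199 of all 4481 tested genes. An unadjusted limma p under 0.05 was found for 4 (14.8%, against 6.72% of all tested genes) and an adjusted p under 0.05 for 0. The 4 were 3 transcription factors and 1 enzyme. Onecut1 (HNF6) had 359 ± 127 (SD, n = 7) and a log2 SD of 0.58, Hnf4a, an activator of Cyp7a1 and Cyp8b1, had 1251 ± 374 and 0.50, and Rxra, the partner of FXR, had 1231 ± 316 and 0.42. Amacr, a racemase of bile acid side chain shortening, had 1060 ± 299.6 (SD, n = 7) and a log2 SD of 0.46. Their adjusted p lay between 0.45 and 0.532. Hnf4a and Rxra were both lowest on replicate 4, at 639 and 664, and Onecut1 was lowest on replicate 2, at 167. Hnf4a had 1017 ± 319 (SD, n = 4) in the array set with brighter spike-ins and 1563 ± 103 (SD, n = 3) in the other; the part of the array set was not tested. The count of 4 was 2 without replicate 4 and 1 without the filter on low signals.

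None of the following tested genes had an unadjusted p under 0.05 for spread, although the SDs of Hsd3b7, Scp2 and Abcc2 were 1.69, 1.67 and 1.41 times the expected ones. Hsd3b7, which acts after the 7-alpha-hydroxylases, had 5873 ± 1026 (SD, n = 7) and a log2 SD of 0.24. Slc27a5, which activates bile acids for conjugation by Baat, had 7790 ± 502, a log2 SD of 0.10. Akr1c6, an aldo-keto reductase, had 16682 ± 1447, Scp2, a sterol carrier and thiolase, had 14026 ± 1896, and Cyp3a11, which hydroxylates bile acids, had 14002 ± 1702. The phospholipid exporter Abcb4 had 3024 ± 396 and the canalicular pump Abcc2 had 574 ± 115, highest on replicate 3 for both. Nr5a2 (LRH-1), an activator of Cyp7a1, was among the steadier factors at 959 ± 77.5, with a log2 SD of 0.12, and Fgfr4, the receptor through which gut Fgf15 represses Cyp7a1, had 427 ± 73.6. Fgf15 itself and the ileal uptake transporter Slc10a2 were below the floor on all 7 arrays. Klb and Slco1b2, also on the list, were not analysed here.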

How the data were processed

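The authors deposited linear intensities of 12488 probe sets for each of 7 Affymetrix U74Av2 arrays, which were read on a GeneArray scanner, per the labels' protocols. Which software made them, and with what scaling, is not given in the sources used here. As deposited, the arrays already had nearly equal trimmed means (2% off each end), from 500.36 to 500.39, so the further scaling below changed little. Platform annotation gave 10833 probe sets, without the 66 controls, a single gene symbol, and gene identifiers matched 10817 of them to RefSeq (GRCm38.p6). Each array was scaled to 1 trimmed mean (2% off each end), a floor of 50.04 was set, and values were taken to log2. The brightest probe set stood for a gene. An intercept-only limma 3.58.1 fit (R 4.3.3) compared each variance with a robust prior that follows the level, by an upper-tail F test with Benjamini-Hochberg adjustment over 4481 genes, and was tested on simulated data. Correlations used two-sided exact permutation tests over all 5040 pairings (144 within array sets), with scipy 1.17.1, pandas 2.3.3 and numpy 2.4.6 under Python 3.11.15, and plots used matplotlib 3.10.9. The number of arrays limits the precision.

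Named were all members, the 3 genes most like each of the 3 most variable members, the 3 brightest and 4 most variable further pathway genes with a set of regulators and transporters, a list of regulatory pairs, and pairs with an unadjusted p under 0.05. Dbp, Tef, Per1, Bhlhe40, Fgf15, Slc10a2 and the relations with control transcripts were chosen after their values were seen. The members and lists were chosen with earlier results of these data known. Alternatives were other scalings, floors, filters, priors, all probe sets averaged, the array set as a term, and arrays left out.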

Additional observations from a re-analysis of the deposited data

Results flagged for a closer look

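Baat stood out on 1 array. On replicate 2 its signal was 2148, against 2972 to 3754 on the other 6, and the gap to the nearest array was 0.581 of the whole range of log2 signals, past the 95% critical value of Dixon's test for 7 samples. Chance takes about 5% of groups past that value, and 9 probe sets of the members were checked. The summed skeletal muscle list was 4233 on that replicate, and the beta-actin 3′ to 5′ ratio was 1.31, the lowest of the 7; their part in the low value was not tested.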

How the results depend on the processing

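The count of genes past the adjusted threshold for spread was 0, and 1 when an offset replaced the floor and 0 to 1 when 1 array was left out (1 without replicate 4 and 1 without replicate 6); the unadjusted count was 301, and 110 of 8251 genes without the filter. No member passed an adjusted p of 0.05 under any of the 21 alternatives. Member pairs passing after adjustment numbered 0, and 0 to 1 when 1 array was left out, the 1 being Cyp7b1 with Nr0b2 without replicate 3. No clock relation passed under the 18 alternatives. Other floors and filters and no further scaling left the r of the named pairs almost unchanged, so they are not separate checks. With the array set as a term, the 144 pairings are too few for 1 relation alone to pass after adjustment. The r of Cyp8b1 with Nr0b2 ranged from -0.656 to 0.664 when 1 array was left out, and was positive only without replicate 3. The median log2 SD of the further pathway genes was 0.18, and 0.20 with the filter at 0.2 of the trimmed mean and 0.15 to 0.20 when 1 array was left out, lowest without replicate 3. The setting without both replicates 1 and 2 was not among the 18 alternatives for correlations, and the choice of prior does not enter a correlation. Separately, r was recomputed without the 2 arrays farthest from the median of the first gene of a pair, which leaves 5 arrays. For Baat those were replicates 1 and 2. No paired analysis was possible because the samples form 1 group. No detection calls were used, so it is not known which signals close to the floor are background.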
